A study of Caenorhabditis elegans with 39 samples.

Results

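Small RNAs of dissected *Caenorhabditis elegans* gonads were compared between animals lacking the Piwi protein PRG-1 and wild type animals. All 21815 rows of the table of mutant gonad small RNAs were taken, and each row was read by the class that its name gives. There were 375 miRNAs, 15366 piRNAs, 2434 loci of WAGO-class 22G-RNAs and 3640 loci of CSR-1-class 22G-RNAs. The comparison used 6 of the 39 samples of the series, 3 libraries from *prg-1(n4357)* I and 3 from wild type (N2). In addition, 3 libraries from *mut-16(pk710)* I gonads entered the fit to help estimate the spread. All animals were gravid adults, grown at 20°C on the *E. coli* strain OP50 and collected 68 to 70 h after synchronization as L1 larvae. Only distal gonad arms were kept, so that each library came from a pool of arms that hold mitotic and early meiotic germ cells together with somatic sheath and tip cells. The *prg-1* strain was outcrossed to wild type before it was expanded, and it represents 1 allele. The study calls the libraries of a strain biological replicates, and the sources used here do not say whether the pools came from separate cultures, so p-values measure the spread between these pools.

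piRNAs of *C. elegans*, also called 21U-RNAs, are bound by PRG-1, and each is made from a transcript of its own. A target mRNA recognised by PRG-1 becomes a template for RNA-dependent RNA polymerases, which make 22G-RNAs, siRNAs that start with guanine. WAGO-class 22G-RNAs are made with the mutator proteins, of which MUT-16 is the scaffold, and are loaded into WAGO Argonautes that silence genes. CSR-1-class 22G-RNAs are loaded into the Argonaute CSR-1, which binds 22G-RNAs of most genes expressed in the germline and is known for protecting them. miRNAs are made by Dicer and bound by other Argonautes.

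Values are given in scaled reads, reads of a row divided by a factor for its library, and are not corrected for locus length. Summed over all rows, the libraries held 4215264 to 7051210 reads in wild type and 2872222 to 5538872 in *prg-1*, and 1 read was worth 0.672 to 2.16 scaled reads. These sums leave out reads outside the classes and count reads of identical rows more than once. The mRNA of *prg-1*, measured in the mRNA libraries of the same strains, was at 9973, 10505 and 11171 scaled reads in wild type and at 4671, 5308 and 6264 in *prg-1* (log2 change -0.97 ± 0.09, SE, adjusted p = 5.8e-05 by limma). *prg-1* itself is not among the 22G-RNA loci. Wild type replicate 1 stood apart from the other wild type libraries at loci that gained 22G-RNAs. Of 69 loci called higher with a log2 change over 3 and a *prg-1* mean of at least 1000, wild type replicate 1 was the highest wild type library at 67, compared with 1774 of all 5949 22G-RNA loci tested. Its excess over the mean of the other wild type libraries had a median of 2.36% of the *prg-1* level, with an interquartile range of 2.05 to 2.75%. *mut-16* replicate 3 was the highest *mut-16* library at 67 of the same loci, by a median of 0.70% of the *prg-1* level. The part of this excess in the results was not tested. Values without wild type replicate 1 are given for the largest gains and for the WAGO-class counts, and those counts are also given without *mut-16* replicate 3.

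The classes took up different shares of the libraries. piRNAs made up 3.17, 3.26 and 3.47% of the scaled reads in wild type and 0.036, 0.027 and 0.033% in *prg-1*, so that the groups lay about 100-fold apart (means 3.30 ± 0.16% and 0.032 ± 0.004%, SD, n = 3). miRNAs made up 1.45, 1.75 and 1.74% in wild type and 2.80, 3.09 and 3.35% in *prg-1*, 1.87 times the wild type share, again with no overlap. WAGO-class 22G-RNAs made up 50.6 ± 1.3% in wild type and 51.5 ± 1.4% in *prg-1*, and CSR-1-class 22G-RNAs 44.5 ± 1.2% and 45.4 ± 1.7%, with overlapping libraries in both classes. Exact two-sided permutation tests gave p = 0.10 for piRNAs and for miRNAs (0.20 after adjustment over the 4 classes) and p = 0.50 for both 22G-RNA classes. With 3 libraries against 3, 0.10 is the smallest p possible. Only the shares of the 22G-RNA classes were close. In scaled reads the WAGO-class totals were 2291777 to 2443098 in wild type and 2762274 to 3278851 in *prg-1*, with no overlap and a ratio of means of 1.26. The CSR-1-class totals were 2054420 to 2136401 and 2600419 to 2720892, also with no overlap and a ratio of 1.26. Over all classes the sums were 4671868 to 4734953 in wild type and 5519222 to 6209799 in *prg-1*, so the rise was not particular to 1 class.

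**Figure D1:**
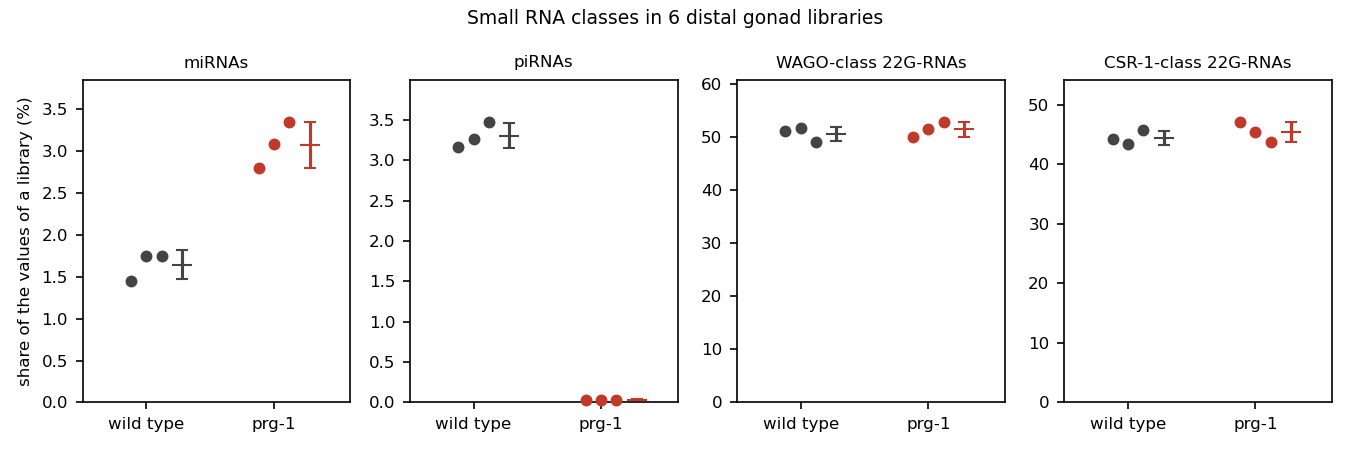
Share of the scaled reads of each library (y axis, %, starting at 0) held by each small RNA class, with 1 point per library and, beside the points, the mean and SD of 3 libraries. piRNA shares lie at 3.17 to 3.47% in wild type and near 0.03% in *prg-1*, miRNA shares do not overlap, and the shares of both 22G-RNA classes do.

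Of the 21815 rows, 8031 reached 10 scaled reads in at least 3 of the 9 libraries and were tested with limma. A call required an adjusted p below 0.05 and a change of at least 1.3-fold. Of all rows tested, 3798 were lower in *prg-1* (47.3%) and 1228 were higher (15.3%). Groups that did not overlap were counted at 53.7% of rows with *prg-1* below and 25.4% with *prg-1* above. The classes departed from these shares in different directions. Of 1984 piRNAs, 1975 were lower and 4 higher, with a median log2 change of -4.32. Of 2394 WAGO-class loci, 1387 were lower (57.9%), 387 were higher (16.2%) and 620 had no call, with a median of -1.39. Of 3555 CSR-1-class loci, 433 were lower (12.2%), 770 higher (21.7%) and 2352 had no call, with a median of 0.11. Of 98 miRNAs, 3 were lower and 67 higher, with a median of 1.31.

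The balance between gains and losses depended on the scale, and no spike-in or other outside reference was used here. The deposited scale leaves the median CSR-1-class locus close to its wild type level. With library totals made equal, the median of all rows moved by -0.30 on the log2 scale, and the CSR-1-class counts turned to 1009 lower and 213 higher. With TMM (trimmed mean of M values) factors over all small RNAs it moved by -0.26, and the counts were 892 lower and 259 higher. When miRNAs alone set the scale the median moved by -1.22, the CSR-1 class had 3052 loci lower and 21 higher, the WAGO class 1808 lower and 97 higher, and miRNAs 10 lower and 7 higher. Over all rows these settings called 57.5, 55.3 and 85.5% lower and 6.5, 7.7 and 1.51% higher. With no filter on low values 34.7% were lower and 7.84% higher on the deposited scale. Directions below are those of the deposited scale.

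**Figure D2:**
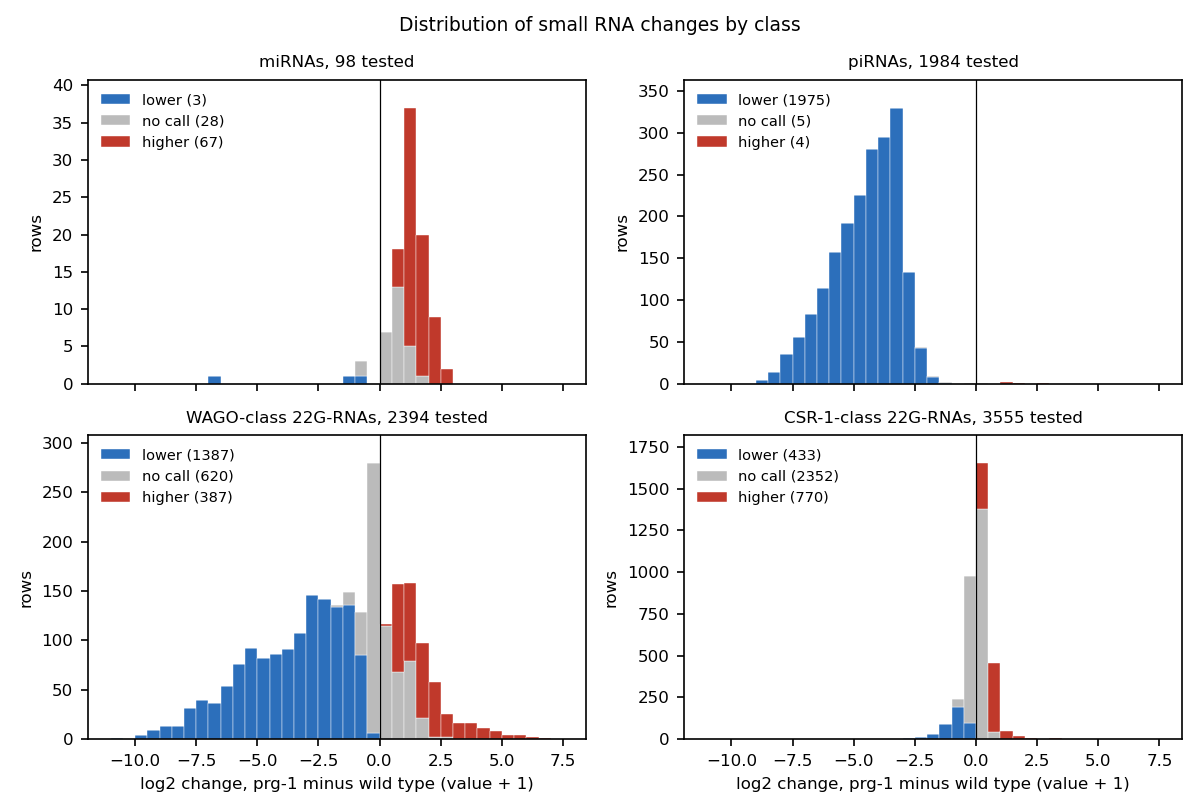
Number of tested rows (y axis) at each log2 change from wild type to *prg-1* (x axis, log2 of scaled reads + 1), in a panel per class and stacked by call. piRNAs lie far below 0 (median -4.32), WAGO-class loci spread from -10.55 to 6.83, CSR-1-class loci crowd around 0.11 and miRNAs around 1.31 on the deposited scale, and with miRNAs as the scale the last 2 medians fall to -1.12 and 0.09.

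piRNAs were nearly absent from the *prg-1* libraries. A read was found in any wild type library for 7276 of the 15366 piRNAs and in any *prg-1* library for 1196, while 8035 had none in these 6 libraries. Reads in wild type alone were found for 6135 piRNAs and in *prg-1* alone for 55. Since piRNAs passed the filter on low values mostly through the wild type and *mut-16* libraries, the 1975 calls are a description and not a share of all piRNAs. Of 293 piRNAs with a wild type mean of at least 100, 285 had a *prg-1* mean under 10 and 110 a mean under 1. The most abundant wild type piRNA, 21ur-3975, was at 2593, 2708 and 3192 in wild type and 21.9, 7.18 and 13 in *prg-1* (log2 change -7.68 ± 0.44, adjusted p = 4.4e-06). 21ur-5107 was at 2153, 2496 and 2732 in wild type and 14, 17.9 and 2.16 in *prg-1* (log2 change -7.99 ± 0.70, adjusted p = 5e-05). 21ur-5432 was at 1949.7, 2717 and 2389 in wild type and 12, 3.59 and 6.49 in *prg-1* (log2 change -8.25 ± 0.50, adjusted p = 6.5e-06). In these piRNAs every *prg-1* library was more than 100-fold below every wild type library, and 21ur-8974 (-7.82) and 21ur-554 (-7.44), the next in abundance, fell alike.

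A few rows listed as piRNAs did not follow the class. The 5 with the highest *prg-1* means made up 28.5, 34.2 and 24.7% of the piRNA reads left in *prg-1*, but 0.12 to 0.15% of those in wild type. 21ur-10492 was at 110.2, 86.6 and 97.4 in wild type and 275, 273 and 208 in *prg-1* (log2 change 1.35 ± 0.25, adjusted p = 0.00062), and 21ur-15587 was at 45.6, 38.3 and 38.1 in wild type and 167, 139 and 164 in *prg-1* (log2 change 1.92 ± 0.28, adjusted p = 9.1e-05). Both were higher in each *prg-1* library than in any wild type library, and both were near absence in *mut-16*, with means of 8.21 and 0. 21ur-15569 (1.31, adjusted p = 0.0046) was also higher, and its *mut-16* mean was 0. 21ur-9360 was at 59, 53.7 and 84.5 in wild type and 88.7, 82.6 and 82.2 in *prg-1*, with overlapping groups and no call (adjusted p = 0.14), although without wild type replicate 3 it was called higher (log2 change 0.58). 21ur-8412 rose (2.88, adjusted p = 0.00064), and its row was identical in all libraries to that of miR-58b-5p, so the reads of this pair cannot be told apart. When miRNAs set the scale, 0 piRNAs were called higher.

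miRNAs formed the reverse picture, on a scale where their share of a library rose 1.87 times. Among the miRNAs with the highest wild type means, miR-37-3p of the miR-35 family, which acts in oocytes and embryos, was at 9243, 10249 and 8236 in wild type and 21619, 21823 and 24122 in *prg-1* (log2 change 1.29 ± 0.26, adjusted p = 0.0028). miR-35-3p was at 6108, 7967 and 5849 in wild type and 15102, 14491 and 15035 in *prg-1* (log2 change 1.18 ± 0.30, adjusted p = 0.0098). miR-61-3p was at 4114, 5556 and 5452 in wild type and 13601, 16725 and 20275 in *prg-1* (log2 change 1.74 ± 0.28, adjusted p = 0.001). In all 3, the *prg-1* libraries were above every wild type library on the deposited scale, and the change of miR-35-3p turned to just below 0 when miRNAs set the scale. miR-51-5p was at 5514, 9101 and 24308 in wild type and 17328, 27426 and 37031 in *prg-1* and had no call (adjusted p = 0.092). Its wild type libraries spanned more than 4-fold, with replicate 3 above 1 of the *prg-1* libraries, and without that replicate it was called higher (log2 change 1.88). miR-39-3p was at 11843, 13421 and 8641 in wild type and 20895, 19389.8 and 19324 in *prg-1*, and although its groups did not overlap, its adjusted p was 0.082 in the fit over 9 libraries and 0.0013 in that over the 6 wild type and *prg-1* libraries. Its change of 0.84 turned to -0.40 when miRNAs set the scale.

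The only miRNA with a large loss was miR-78, which was at 990.4, 950.2 and 809 in wild type and 9.96, 7.18 and 6.49 in *prg-1* (log2 change -6.71 ± 0.24, adjusted p = 2.2e-08). Each *prg-1* library held about 1% of the wild type level, and in *mut-16* the mean was 1869. The other miRNAs called lower, named here because they are so few, were miR-4936 (-1.47, adjusted p = 0.0012) and miR-2214-5p (-0.83, adjusted p = 0.046), whose call was lost without wild type replicate 1 or 2 or any 1 of the *prg-1* libraries (log2 changes of -0.95 to -0.61). The largest gains among miRNAs with a mean of at least 100 were those of miR-240-3p (2.43), miR-786-3p (2.25), miR-52-5p (2.06) and miR-235-3p (2.03). These remained above 0 when miRNAs set the scale, whereas most other miRNAs were then near 0 (median log2 change 0.09). Of all miRNAs tested 68.4% were higher. In the miR-35 family 4 of 8 members were higher and 4 had no call. In the let-7 family, whose members time larval development, 2 of 4 tested were higher, and in the miR-58 family 4 of 4. The list of the miR-51 family held 5p arms only, of which 2 of 3 tested were higher, and the 3p arms of its members miR-54 (1.86, adjusted p = 0.0013), miR-55 (1.61, adjusted p = 0.012) and miR-56 (1.65, adjusted p = 0.0051), added after their values were seen, were higher too, but were not called when miRNAs set the scale. No tested member of these families was lower on the deposited scale, and when miRNAs set the scale 2 members of the miR-35 family were lower and 1 of the 5p arms of the miR-51 family was higher.

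Markers of somatic cells were followed because the dissected arms can carry other tissue. Of 11 miRNAs known from muscle, intestine, neurons or other soma, 5 were tested, and all 5 were higher, when 68.4% of all miRNAs tested were. Only 1 of the 5 was higher when miRNAs set the scale. lin-4-5p was at 333, 249 and 308 in wild type and 801, 803 and 1679.9 in *prg-1* (log2 change 1.80 ± 0.32, adjusted p = 0.0015), and miR-1-3p, known from muscle, was at 21.1, 36.9 and 14.8 in wild type and 49.8, 79 and 43.2 in *prg-1* (log2 change 1.25 ± 0.50, adjusted p = 0.044). The groups did not overlap in either, but the call of miR-1-3p was lost without wild type replicate 1 or 3 or any 1 of the *prg-1* libraries (log2 changes of 0.96 to 1.43). miR-791-3p was at 0 in all 6 libraries, and the intestinal miR-60-3p and the neuronal miR-124-3p were at 0 in wild type. The summed level of the 11 was 0.51 to 0.68% of the miRNA reads in wild type and 0.66 to 1.03% in *prg-1*, highest in replicate 3. In the mRNA libraries of the same strains, 3 of 3 muscle genes were higher, with sums of 274 to 356 scaled reads in wild type and 772 to 1793 in *prg-1*. Of 5 intestinal genes 4 were tested and none was called, with sums of 75.1 to 359 and 238 to 436. Sperm genes were higher as well, with all 28 *msp* genes tested and all 8 of 9 other sperm genes that were tested called, and the sums of the 9 were 118 to 366 in wild type and 1388 to 8022 in *prg-1*. The sums of 5 germ cell genes, with the mutated gene *prg-1* among them, were 36640 to 41129 and 34142 to 41215, and 1 of the 5 was lower. Since the fall of *prg-1* mRNA is part of these sums, they do not show whether germ cell content was even. The part of these cells in the miRNA changes was not tested, and in such pools more cells of a type and more RNA per cell cannot be told apart.

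WAGO-class 22G-RNAs fell at 1387 loci. By the ratio of group means 674 loci lost over 10-fold, as did 28.5% of all rows tested. The 10 largest losses among loci with a mean of at least 1000 left almost no reads in *prg-1*. 22G-RNAs of *F46F2.4* were at 3656, 3989 and 3139 in wild type and 2.99, 2.39 and 0 in *prg-1* (log2 change -10.55 ± 0.48, adjusted p = 3.7e-08). *C44C10.5* was at 2873, 3188 and 2549 in wild type and 2.99, 1.2 and 2.16 in *prg-1* (log2 change -9.88 ± 0.52, adjusted p = 9.2e-08), and *C09G1.3* at 1296, 1439 and 1238 in wild type and 0, 0 and 2.16 in *prg-1* (log2 change -9.82 ± 0.49, adjusted p = 6.6e-08). These 3 loci carry only sequence names, and in each the *prg-1* libraries held between 0 and 3 reads. *got-1.2*, which encodes an aspartate aminotransferase, was at 17129, 17500.2 and 16017 in wild type and 11, 17.9 and 43.2 in *prg-1* (log2 change -9.61 ± 0.57, adjusted p = 4.4e-06). *jmjd-3.1*, which encodes a demethylase of lysine 27 of histone H3, was at 2436, 2543 and 2023 in wild type and 1.99, 1.2 and 4.32 in *prg-1* (log2 change -9.47 ± 0.78, adjusted p = 5e-06), and *pmk-3*, a p38 MAP kinase gene, at 1774, 2086 and 1719 in wild type and 2.99, 3.59 and 0 in *prg-1* (log2 change -9.46 ± 0.68, adjusted p = 1.4e-06). In these genes too no *prg-1* library came near a wild type library. The pseudogene *Y60A9A.3* (-9.54) and the loci *F22H10.4* (-9.34), *Y110A2AL.10* (-9.25) and *K08E5.1* (-9.18) complete the 10. All 10 were also near absence in *mut-16*, where their means ran from 0.328 (*C09G1.3*) to 31.6 (*got-1.2*).

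Loci with the highest wild type values lost 22G-RNAs to different degrees. The pseudogene *F32A11.5* was at 28119, 26831 and 30009 in wild type and 274, 257 and 270.3 in *prg-1* (log2 change -6.72 ± 0.07, adjusted p = 1.1e-12), a loss of about 100-fold. *cars-2*, a tRNA synthetase gene that the file lists as the pseudogene *Y23H5A.1*, was at 28608, 28785 and 25642 in wild type and 6776, 7259.7 and 8023 in *prg-1* (log2 change -1.91 ± 0.07, adjusted p = 1.3e-08). *linc-29*, a noncoding RNA listed as *Y73B6BL.269*, was at 30994, 30215 and 24477 in wild type and 10515, 10956 and 9173 in *prg-1* (log2 change -1.48 ± 0.11, adjusted p = 1.3e-06). In both, part of the 22G-RNAs remained in every *prg-1* library, and the groups did not overlap. *eri-6*, a helicase gene of the ERI pathway, was at 29588, 30568 and 28988 in wild type and 25467, 28269 and 32461 in *prg-1* (log2 change -0.06 ± 0.11, adjusted p = 0.68). Its groups overlapped, and it had no call. The transposon locus WBTransposon00000216 was at 38442, 38526 and 37616 in wild type and 87013, 96608 and 121376 in *prg-1*. Here the groups lay far apart, yet the adjusted p was 0.18 over 9 libraries and 1.7e-05 over the 6 wild type and *prg-1* libraries, and it was called higher without wild type replicate 1 and *mut-16* replicate 3 (log2 change 1.40). *bath-45*, a gene of the MATH-BTB family and a known piRNA target, was at 24738, 24463 and 23389.7 in wild type and 1503, 1629 and 1416 in *prg-1* (log2 change -4.0 ± 0.06, adjusted p = 5.5e-11), with about 6% of its 22G-RNAs left in each *prg-1* library and a mean of 215 in *mut-16*.

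WAGO-class 22G-RNAs were gained at other loci, and by the ratio of group means 51 gained over 10-fold, as did 0.76% of all rows tested. *R10F2.6* was at 854, 154 and 162 in wild type and 30247, 30429 and 34586 in *prg-1* (log2 change 6.83 ± 1.25, adjusted p = 0.0024). *C53D5.5* was at 347, 88.6 and 66.8 in wild type and 9955, 10281 and 10525 in *prg-1* (log2 change 6.32 ± 1.24, adjusted p = 0.0034), and *dmd-9*, a gene of the doublesex and MAB-3 family of transcription factors, at 131, 44.3 and 37.1 in wild type and 4314, 3989 and 4700.2 in *prg-1* (log2 change 6.14 ± 1.07, adjusted p = 0.0017). In all 3, wild type replicate 1 was above the other wild type libraries and far below every *prg-1* library, and without it the log2 changes were 7.64, 7.04 and 6.70. *dyf-3*, needed for the cilia of sensory neurons, was at 637, 179 and 209.7 in wild type and 16309.9, 16754 and 22042 in *prg-1* (log2 change 5.98 ± 0.84, adjusted p = 0.00059). *gba-2*, which encodes a glucocerebrosidase-like enzyme and is listed as *C33C12.8*, was at 210.3, 79.9 and 70.5 in wild type and 4690.3, 5336 and 4929 in *prg-1* (log2 change 5.54 ± 1.08, adjusted p = 0.0031). *pho-9*, an acid phosphatase gene, was at 654, 306 and 292 in wild type and 14448, 15028 and 15227 in *prg-1* (log2 change 5.26 ± 1.0, adjusted p = 0.0028). These genes show the same order of libraries, with wild type replicate 1 at more than 2 times the others. *K11D2.1* (5.84), the claudin-like gene *clc-26* (5.51), *C39F7.5* (5.24) and *B0261.8* (5.22) complete the 10 largest gains, and without wild type replicate 1 all 10 were larger, from 5.56 (*B0261.8*) to 7.64 (*R10F2.6*). In *mut-16* these loci were low, with means from 10.7 (*dmd-9*) to 88.5 (*R10F2.6*).

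**Figure D3:**
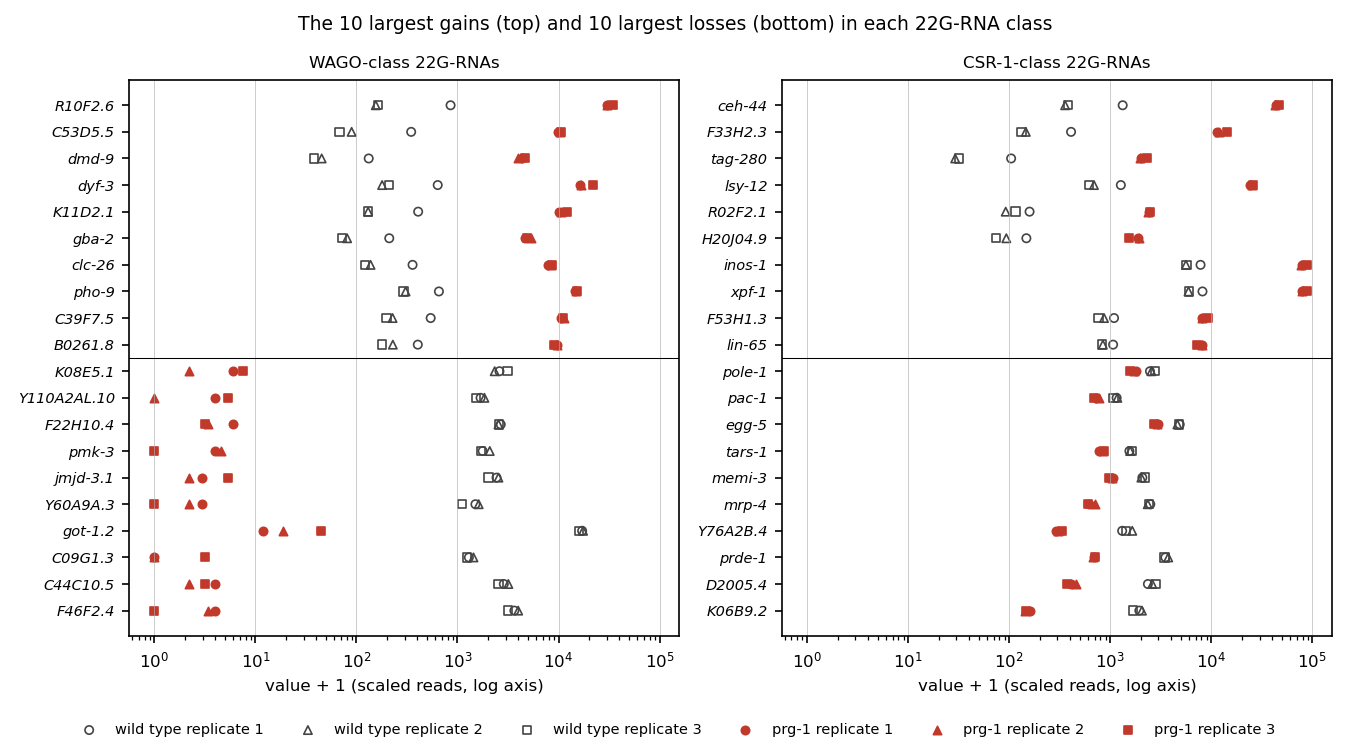
Scaled reads + 1 (x axis, log) in each wild type library (open symbols) and each *prg-1* library (filled symbols) at the 10 loci with the largest gains and the 10 with the largest losses of each 22G-RNA class. At the gains wild type replicate 1 (circles) lies above replicates 2 and 3, and at every locus shown the *prg-1* libraries lie apart from the wild type libraries.

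The count of WAGO-class calls depended on the libraries that set the spread. At these loci the *mut-16* libraries held few reads, and the standard error of the 620 loci with no call had a median of 0.321 over 9 libraries and 0.106 over the 6 wild type and *prg-1* libraries. Among those 620, *prg-1* lay above all wild type libraries at 218 loci and below them at 223, and the fit over 6 libraries called 184 higher and 189 lower. With 6 libraries 1576 WAGO-class loci were lower, 571 higher and 247 had no call, when 45.7% of all rows tested were lower and 19.4% higher. Without wild type replicate 1 the counts were 1351 lower and 317 higher (46.1% and 13.8% of all rows), and without it and *mut-16* replicate 3, an alternative chosen after the data were seen, 1383 lower and 526 higher (46.6% and 16.6%). Of the WAGO-class loci tested, 420 passed the filter on low values through the wild type libraries alone, and these had to be lower in *prg-1*.

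Within the WAGO class, reads lay at other loci in *prg-1* than in wild type. The loci called lower held 45.7 to 47.1% of WAGO-class reads in the wild type libraries and 7.52 to 8.04% in *prg-1*. The loci called higher held 15 to 16.0% in wild type and 48.0 to 48.1% in *prg-1*, and those with no call 37.9 to 38.3% and 43.8 to 44.4%. These shares describe the calls and were not tested. Fewer loci carried the class, and 50% of its reads came from 106 to 112 loci in wild type and from 73 to 78 in *prg-1*. Of 61 loci with a mean of at least 10000, 16.4% were lower and 34.4% higher.

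**Figure D4:**
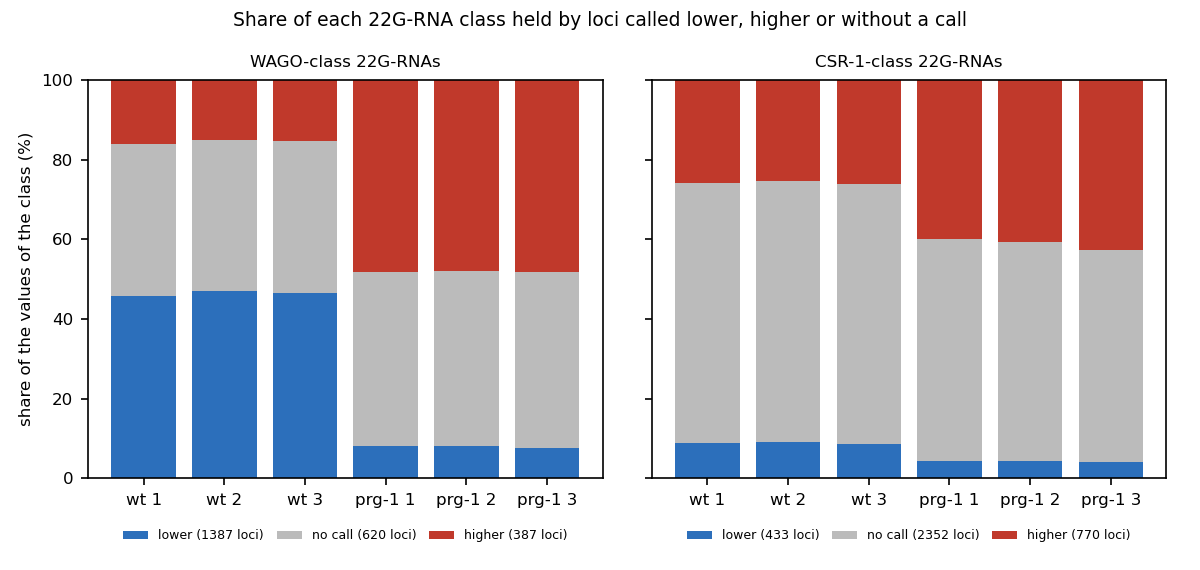
Share of the scaled reads of each 22G-RNA class (y axis, %) held in each library by loci called lower, called higher or without a call in *prg-1*. In the WAGO class, loci called lower pass from 45.7 to 47.1% of the reads in wild type to 7.52 to 8.04% in *prg-1*, and loci called higher from 15 to 16.0% to 48.0 to 48.1%; loci are grouped by the same libraries that are shown.

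The kind of locus given by the file separated the WAGO class further. Of 1839 loci listed as genes, 1276 were lower (69.4%) and 263 higher (14.3%), with a median log2 change of -2.18. Of 171 pseudogenes, 83 were lower and 41 higher (median -0.53). Of 191 transposon loci, 12 were lower and 37 higher, and 142 had no call, with a median of -0.17. Of 193 rows listed as coding sequences of no named gene, 16 were lower and 46 higher (median -0.10). With 6 libraries, 74 transposon loci were lower and 82 higher, and of the coding sequences 64 and 84. Transposon loci are repeated in the genome, and 66 of the transposon and coding sequence rows were identical to another row in every library, so their counts are not of separate loci. Summed over rows, transposon loci were at 146839, 152188 and 141198 scaled reads in wild type and 235097, 257924 and 301254 in *prg-1*. Every *prg-1* library was above every wild type library, also with library totals made equal (131636 to 139992 in wild type and 185526 to 211296 in *prg-1*), whereas all lay below when miRNAs set the scale (234772 to 264963 and 182173 to 192789). The row of WBTransposon00000216, with values given above, made up a large part of the rise on the deposited scale, while the median transposon row was at -0.17. Any identical rows were added more than once in these sums.

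**Figure D5:**
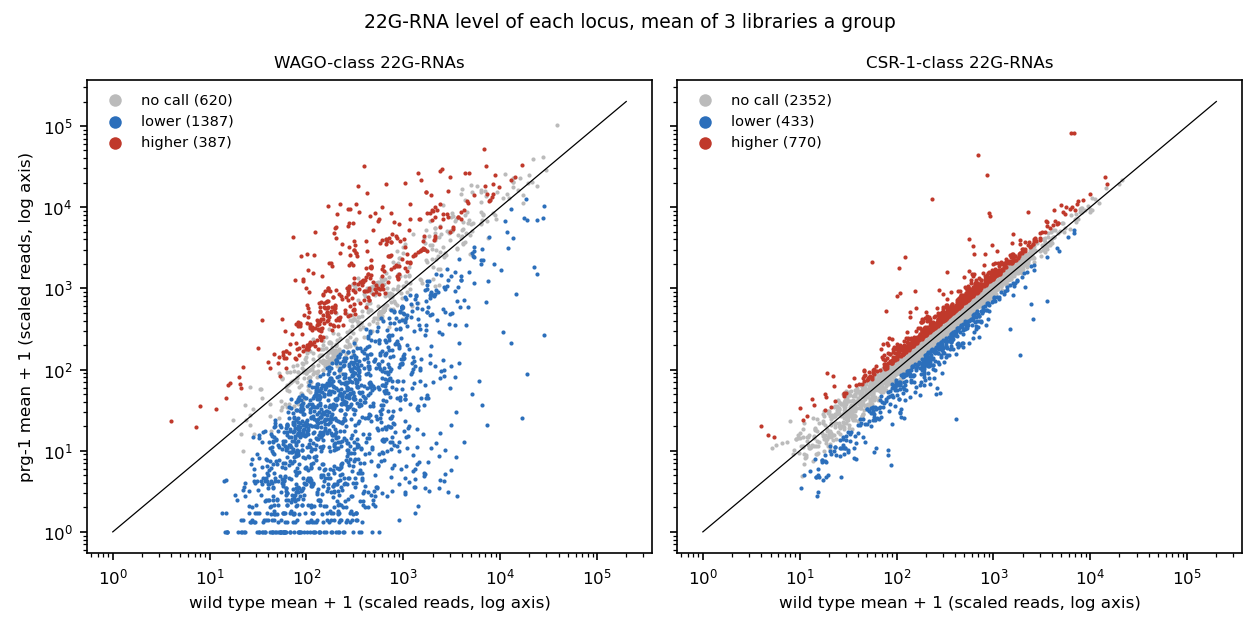
Mean of 3 *prg-1* libraries (y axis) against the mean of 3 wild type libraries (x axis), both as scaled reads + 1 on log axes, for each WAGO-class (left) and CSR-1-class (right) locus tested, coloured by call, with the line of equal levels. WAGO-class loci lie far to both sides of the line, with 674 losses and 51 gains over 10-fold, and most CSR-1-class loci lie along it, with 4 and 8.

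CSR-1-class 22G-RNAs changed little at most loci. On the deposited scale the ratio of group means was over 2-fold upward at 85 of 3555 loci and over 2-fold downward at 143. Of the 5 loci with the highest wild type means, 2 were called higher. *snrp-200*, a spliceosomal helicase gene, was at 21415, 20646 and 22218 in wild type and 21590.1, 21469 and 22321 in *prg-1* (log2 change 0.02 ± 0.05, adjusted p = 0.69), and *klp-7*, which encodes a kinesin that depolymerises microtubules, was at 20413, 18763 and 20251 in wild type and 19772, 19009 and 19399.8 in *prg-1* (log2 change -0.03 ± 0.05, adjusted p = 0.6). The groups of both overlapped, and the change of *snrp-200* was below 0 with equal library totals, with TMM and when miRNAs set the scale. *ccct-1* (*Y37H9A.3*) was at 15281, 14148 and 12779.8 in wild type and 21794, 23277 and 26426 in *prg-1* (log2 change 0.76 ± 0.14, adjusted p = 0.0012). This gain turned to a loss when miRNAs set the scale. The locus is listed in both classes with the same values, as are 27 locus names in all, and its *mut-16* mean of 635 was low.

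A small set of CSR-1-class loci rose by many fold. *ceh-44*, a homeobox gene of the CUX type, was at 1326, 357 and 381 in wild type and 43322, 42762 and 46494 in *prg-1* (log2 change 6.29 ± 0.52, adjusted p = 3.7e-05). *lsy-12*, which encodes a histone acetyltransferase of the MYST family, was at 1272, 689 and 611 in wild type and 24262, 25002 and 25996 in *prg-1* (log2 change 4.95 ± 0.27, adjusted p = 2.2e-06). *lin-65*, whose protein acts with the H3K9 methyltransferase MET-2, was at 1066, 845 and 833 in wild type and 8119, 8011 and 7299 in *prg-1* (log2 change 3.10 ± 0.09, adjusted p = 3.3e-09). Wild type replicate 1 was again the highest wild type library in each, and without it the log2 changes were 6.90, 5.27 and 3.22. *xpf-1*, a gene for a DNA repair nuclease listed as *C47D12.8*, was at 8178, 5947 and 6023 in wild type and 79329, 78714 and 88558 in *prg-1* (log2 change 3.63 ± 0.11, adjusted p = 7.1e-09), and *inos-1*, an inositol-3-phosphate synthase gene, at 7825, 5612 and 5679 in wild type and 78383, 77797 and 87681 in *prg-1* (log2 change 3.69 ± 0.12, adjusted p = 1.1e-08). *inos-1* lies within *xpf-1* in RefSeq (WBcel235), so the reads of this pair may be shared. Without wild type replicate 1 their log2 changes were 3.78 and 3.85. *F33H2.3* (5.96), *tag-280* (5.51), *R02F2.1* (4.34), *H20J04.9* (4.13) and *F53H1.3* (3.24) complete the 10. The 10 highest CSR-1-class loci made up 12.9 to 13.7% of the class in *prg-1* and 6.53 to 6.78% in wild type, and 242 to 269 loci made up 50% of it in *prg-1*, compared with 346 to 367. Both *xpf-1* and *inos-1* are counted in these *prg-1* values, so any reads they share are counted more than once.

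CSR-1-class losses were smaller. *K06B9.2* was at 1939.7, 2059.5 and 1673 in wild type and 158, 144 and 147 in *prg-1* (log2 change -3.65 ± 0.10, adjusted p = 2.1e-09), and *D2005.4* at 2358, 2607 and 2803 in wild type and 408, 457 and 376 in *prg-1* (log2 change -2.64 ± 0.09, adjusted p = 6e-09). *Y76A2B.4* was at 1311, 1651 and 1439 in wild type and 291, 306 and 333 in *prg-1* (log2 change -2.23 ± 0.17, adjusted p = 1.1e-06). The libraries of the strains did not overlap in any of them. *mrp-4*, a gene for an ABC transporter (-1.93, adjusted p = 1.1e-08), *memi-3* (*H02I12.5*), a gene of the meiosis to mitosis transition (-1.03, adjusted p = 2e-07), the threonyl tRNA synthetase gene *tars-1* (-0.93), *egg-5*, which encodes a pseudophosphatase of the oocyte cortex (-0.73), the polarity gene *pac-1* (-0.64) and the DNA polymerase epsilon gene *pole-1* (-0.61) followed. The *mut-16* means of these loci were not alike, with 2289 at *D2005.4* and 1654 at *mrp-4*, but 210.1 at *K06B9.2*, which is listed in both classes, and 19.1 at *Y76A2B.4*. *prde-1*, also listed in both classes, belongs to the 10 and is described with the piRNA pathway.

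Genes of the small RNA pathways were themselves sources of 22G-RNAs. Most of their rows were of the CSR-1 class, in which 21.7% of loci tested were higher and 12.2% lower. The WAGO class, in which 16.2% were higher and 57.9% lower, held 2 of the 18 piRNA pathway rows. It also held 2 of the 10 WAGO Argonaute rows and 3 of the 12 mutator and 22G-RNA synthesis rows. Of 18 rows of piRNA pathway genes, 7 were higher and 5 lower, with a median log2 change of 0.11, which turned to 0 higher and 13 lower when miRNAs set the scale. *parn-1*, whose nuclease trims the 3' ends of piRNAs, was at 4165, 4207 and 4228 in wild type and 711, 712 and 726 in *prg-1* (log2 change -2.55 ± 0.05, adjusted p = 1.4e-10). *prde-1*, needed for the transcription of piRNA precursors, was at 3512, 3748 and 3449 in wild type and 692, 672 and 709 in *prg-1* (log2 change -2.37 ± 0.06, adjusted p = 1.3e-09). *wago-2*, an Argonaute gene, was at 2163, 2204 and 2302 in wild type and 411, 388 and 422 in *prg-1* (log2 change -2.45 ± 0.06, adjusted p = 1.7e-09), and *rde-11*, which acts in the making of secondary siRNAs, was at 1650.3, 1882 and 1665 in wild type and 311, 264 and 346 in *prg-1* (log2 change -2.50 ± 0.13, adjusted p = 8.6e-08). These losses were of like size, about 5-fold to 6-fold, and all 4 genes have WAGO-class rows, *prde-1* in both classes. The mRNAs of all 4 genes were higher in *prg-1* (log2 change 1.46, adjusted p = 2.6e-08 for *parn-1*, 0.41, adjusted p = 0.0025 for *prde-1*, 0.55, adjusted p = 1.4e-05 for *wago-2* and 0.63, adjusted p = 1.1e-05 for *rde-11*). Over whole lists, whatever their 22G-RNAs did, the mRNA was higher at 4 of 18 piRNA pathway rows and lower at 1. These counts are of rows and not of genes, and a gene listed in both classes, such as *prde-1*, has a row in each. At 9 WAGO Argonaute rows with an mRNA tested 3 were higher and 2 lower, and at 12 mutator and 22G-RNA synthesis rows 2 and 0. Of all mRNAs tested 20.7% were higher and 9.53% lower. *pid-4*, a partner gene of the PID-2 complex, rose from 1552 to 3622 (1.22, adjusted p = 7e-08), and *ppw-1*, an Argonaute gene, from 994 to 1965 (0.98, adjusted p = 9.4e-08); on the miRNA scale neither was above its wild type level. Of 10 WAGO Argonaute rows 3 were higher and 3 lower, and of 12 mutator and 22G-RNA synthesis rows 2 were higher and 4 lower. *csr-1* was at 5237, 5143 and 4949 in wild type and 6881, 6578 and 5933 in *prg-1* and had no call, since its log2 change of 0.34 was under 1.3-fold and turned to -0.90 when miRNAs set the scale, and without *prg-1* replicate 3 it was called higher (0.40). The locus *mut-16* was at 780.1, 837 and 829.7 in wild type and 908, 878 and 949 in *prg-1* (log2 change 0.16, adjusted p = 0.13), a change that was below 0 with equal library totals, with TMM and when miRNAs set the scale. Of 10 ERI and Dicer rows 3 were higher and 2 lower, and of 11 nuclear RNAi rows 4 and 3.

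Core histone genes gained 22G-RNAs at 8 of 9 rows, with none lower and a median log2 change of 1.40, whereas 7 were higher and 1 lower with library totals made equal, and 1 and 1 when miRNAs set the scale. The study chose histone genes on these samples, so this count is not independent evidence of a direction. *his-60* was at 229, 207 and 213 in wild type and 799, 906 and 863 in *prg-1* (log2 change 1.98 ± 0.09, adjusted p = 4.3e-08), and *his-31* at 127, 127 and 149 in wild type and 241, 321 and 357 in *prg-1* (log2 change 1.17 ± 0.22, adjusted p = 0.0006). All *prg-1* libraries of both were above all wild type libraries, but the change of *his-31* turned to just below 0 when miRNAs set the scale. *his-28* and *his-50* had the same values in every library (1.45, adjusted p = 0.0006) and cannot be told apart, as is common among these near-identical genes. *his-37* was the exception, at 218, 225 and 190.3 in wild type and 182, 169 and 129.7 in *prg-1* (adjusted p = 0.13). Its *prg-1* libraries lay below every wild type library, and the fit over the 6 wild type and *prg-1* libraries called it lower. Among 11 rows of histone variants and linker histones 6 were higher and 1 lower. Of these rows 4 were of the WAGO class and 7 of the CSR-1 class, in which 21.7% of loci tested were higher and 12.2% lower. *his-35*, a variant of H2A, rose most among those named, at 593, 391 and 383 in wild type and 8035, 7127 and 8315 in *prg-1* (log2 change 4.13 ± 0.34, adjusted p = 2e-05), whereas *his-24*, a linker histone gene, was at 19352, 17248 and 18809.6 in wild type and 11376, 11944 and 14131 in *prg-1* (log2 change -0.57 ± 0.22, adjusted p = 0.049). Wild type replicate 1 was the highest wild type library of *his-35*, whose log2 change without it was 4.33. The call of *his-24* was lost without any 1 of the wild type or *prg-1* libraries (log2 changes of -0.66 to -0.51). Of the 9 core histone mRNAs, 4 were lower and none was higher, when 9.53% of all mRNAs tested were lower and 20.7% higher.

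Spermatogenesis genes were few among the loci, and no *msp* gene has a row. Of 6, 2 were higher and 3 lower. *spe-41*, which encodes a calcium channel of sperm, was at 512, 429 and 438 in wild type and 1761, 1961 and 1931 in *prg-1* (log2 change 2.04 ± 0.18, adjusted p = 2.3e-06). *fer-1*, which encodes a ferlin needed for membrane fusion in sperm, was at 268, 252 and 222 in wild type and 87.7, 96.9 and 197 in *prg-1* (log2 change -1.05 ± 0.30, adjusted p = 0.0099), and *spe-15*, a myosin gene, was at 236, 242 and 277 in wild type and 109.6, 135 and 169 in *prg-1* (log2 change -0.88 ± 0.19, adjusted p = 0.0015). The mRNAs of all 3 were higher in *prg-1* (log2 change 1.98, adjusted p = 0.01 for *spe-41*, 4.11, adjusted p = 0.001 for *fer-1* and 2.32, adjusted p = 0.0061 for *spe-15*), while their 22G-RNAs went in different directions. Genes of meiotic chromosomes, P granules, oocytes and the eggshell were nearly all of the CSR-1 class, in which 21.7% of loci tested were higher and 12.2% lower. Meiotic chromosome genes had 15 of 38 rows higher and none lower (median 0.29), and 0 higher and 28 lower when miRNAs set the scale. Of 15 P granule rows 5 were higher and none lower, but 0 and 3 with library totals made equal. Of 28 oocyte and eggshell rows 5 were higher and 8 lower (median -0.15), and 0 and 18 with library totals made equal. The direction of these lists thus depended on the scale.

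Loci of large gene families were counted as well. F-box genes encode adaptors of ubiquitin ligases, and of 97 rows tested, of 104, 66 were lower (68.0%) and 12 higher, with a median log2 change of -2.38. Of 31 nuclear hormone receptor rows tested, of 34, 22 were lower and 3 higher (median -2.84). Of 45 MATH and BTB rows tested, of 46, 24 were lower and 10 higher (median -0.69), and of 14 homeobox rows 7 were lower and 3 higher (median -0.93). For all WAGO-class loci listed as genes, 69.4% were lower, with a median of -2.18, close to the values of the F-box rows. *fbxc-43* was at 7151, 7834 and 6596 in wild type and 661, 724 and 675 in *prg-1* (log2 change -3.39 ± 0.15, adjusted p = 9e-08), and *nhr-204* at 619, 787 and 647 in wild type and 0.996, 0 and 4.32 in *prg-1* (log2 change -8.28 ± 0.78, adjusted p = 7.1e-06). *ceh-20*, a homeobox gene of the PBX type, was at 1172, 1287 and 1116 in wild type and 87.7, 99.3 and 71.3 in *prg-1* (log2 change -3.79 ± 0.15, adjusted p = 1.7e-08). In these genes the *prg-1* libraries were more than 9-fold below the wild type libraries. Not every abundant member fell. *fbxa-192* was at 6263, 6741 and 6166 in wild type and 5729.6, 6172 and 7046 in *prg-1* (adjusted p = 0.84), and *fbxa-218* at 6649, 6708 and 5859 in wild type and 6181, 5795 and 6650.4 in *prg-1* (adjusted p = 0.92), with overlapping groups in both. *math-48* was at 2065, 2084 and 1723 in wild type and 8844, 9079 and 10027 in *prg-1* (log2 change 2.25 ± 0.79, adjusted p = 0.039) and *fbxa-193*, listed as a pseudogene, at 887, 911 and 716 in wild type and 4137, 4776 and 4482 in *prg-1* (log2 change 2.42 ± 0.17, adjusted p = 1.3e-06), each with *prg-1* libraries at more than 4 times the wild type level. The call of *math-48* was lost without any 1 of the wild type or *prg-1* libraries (log2 changes of at least 2.16). *nhr-236* rose as well (2.01, adjusted p = 0.0024). *bath-20* (-1.27, adjusted p = 0.00017) and *bath-29* (-3.66, adjusted p = 1.8e-09) fell with *bath-45*.

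The mRNAs of the 22G-RNA loci were read from separate libraries of the same strains. Of 9943 mRNAs tested, 948 were lower (9.53%) and 2063 higher (20.7%) in *prg-1*. Of 960 mRNAs from WAGO-class loci that lost 22G-RNAs, 173 were higher (18.0%) and 196 lower (20.4%), with a median log2 change of -0.06. Among the 165 of these with a 22G-RNA mean of at least 1000, 65 were higher (39.4%) and 33 lower (20.0%). The share of higher mRNAs was not far from this at the WAGO-class loci with no 22G-RNA call, where 71 of 203 were higher and 18 lower. Of 192 mRNAs from WAGO-class loci that gained 22G-RNAs, 40 were higher and 36 lower (20.8 and 18.8%), and of the 132 with a mean of at least 1000, 32 were higher and 20 lower (24.2 and 15.2%). Of 433 mRNAs from CSR-1-class loci that lost 22G-RNAs, 3 were higher and 107 lower (24.7%, median -0.15), and of 767 from those that gained, 26 were higher and 14 lower. With mRNAs of a mean over 1 tested, 185 mRNAs of WAGO-class losses were higher and 199 lower.

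Single genes showed each combination of calls. *bath-45* mRNA was at 240.1, 194 and 206 in wild type and 2047, 1939 and 1892 in *prg-1* (log2 change 3.20, adjusted p = 1e-08), above wild type in all 3 libraries while its 22G-RNAs fell. *C44C10.5* mRNA was at 38.9, 44.6 and 56.2 in wild type and 8.28, 4.03 and 8.59 in *prg-1* (-2.62, adjusted p = 0.00065), lower in all 3 while its 22G-RNAs fell. *got-1.2* mRNA was at 133, 124 and 159 in wild type and 138, 135 and 159 in *prg-1* (0.06, adjusted p = 0.73), with no call at a more than 100-fold loss of 22G-RNAs. Among the gains, *clc-26* mRNA was at 56.3, 44.9 and 66.7 in wild type and 2.21, 5.74 and 3.44 in *prg-1* (-3.62, adjusted p = 3.3e-05), lower in each *prg-1* library, and *R10F2.6* mRNA was at 158, 189 and 167 in wild type and 418, 487 and 815 in *prg-1* (1.68, adjusted p = 0.0008), called higher. In the CSR-1 class, *inos-1* mRNA was at 2422, 2351 and 2252 in wild type and 849.7, 934 and 832 in *prg-1* (-1.43, adjusted p = 1.2e-07), lower where 22G-RNAs of the locus rose, and *ceh-44* mRNA was at 3906, 4312 and 4320.1 in wild type and 3845, 4056 and 3974 in *prg-1* (-0.08, adjusted p = 0.22), with no call. Sperm genes, whose summed mRNA was higher in *prg-1*, are among the mRNAs counted here, and their part in these counts was not tested.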

How the data were processed

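Small RNAs of 16 to 30 nt were gel-selected from pooled distal gonads, treated with polyphosphatase and sequenced. The authors matched reads to the *C. elegans* genome (WS230) with CASHX, discarded imperfect matches and counted them with custom Perl scripts and SAMtools 1.6. The deposited signal values are, from the files themselves, reads divided by a size factor per library, and 100% of values above 0 came out as whole reads (within 1e-06 of a read) in each of the 9 libraries. The mRNA values, a deposited signal of estimated reads scaled per library, came from ribosome-depleted libraries processed by the authors with Trimmomatic 0.35, STAR 2.5.0a and RSEM 1.3.0. How either table was scaled is not given in the sources used here. Since the values are scaled, limma 3.58.1 (trend, robust; R 4.3.3) was fitted to log2(value + 1) over 9 libraries of 3 genotypes, for features at 10 or more in at least 3 libraries. p-values were adjusted by Benjamini-Hochberg over all features tested, and calls were made at an adjusted p under 0.05 where the change reached 1.3-fold. Fold changes of low features are understated on this scale. Class shares were compared by exact permutation tests.

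Loci were named by rule: the 10 highest and 10 lowest changes of each 22G-RNA class among calls with a mean of at least 1000, the 5 highest wild type means of each class, the 5 piRNAs highest in *prg-1* and those called higher, the 10 largest miRNA changes at a mean of at least 100, up to 6 members of each list, and *bath-45* and *mut-16*. Members and the 26 lists were chosen with earlier results of these data known. edgeR 4.0.16 and DESeq2 1.42.0 on recovered reads, other scalings, filters and pseudocounts and left-out libraries were alternatives. Counts were simulated for 8031 small RNAs with the same dispersion for every row, and changes were placed only in rows not low in wild type. In these counts the fit recovered 82% of 2-fold and 100% of 4-fold changes with 2 false calls. These rates do not describe low rows or rows with a wider spread. Names came from the files and RefSeq (WBcel235). The other 4 tables were not used, no sequences were used here, and 27 locus names listed in both classes were counted in each.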

Additional observations from a re-analysis of the deposited data

How the results depend on the processing

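Scaling moved most counts, and the low-value filter moved that of piRNAs lower. Over all small RNAs, 537 were higher with library totals made equal, 624 with TMM and 125 (7058 lower) with TMM over miRNAs only. CSR-1-class loci were 1009 lower and 213 higher, 892 and 259, and 3052 and 21 under these settings, miRNAs 5, 5 and 10 lower with 7 higher under the last, WAGO-class loci 97 higher and piRNAs 0 higher under the last. With no low-value filter 3438 piRNAs were lower and 7 higher, and 3461 were lower with a mean over 1 as filter. Without the fold threshold 1191 CSR-1-class loci were higher. Scaled to miRNAs, the log2 changes of *mut-16* (-1.08), *csr-1* (-0.90), *ppw-1* (-0.25), *pid-4* (-0.014), *ccct-1* (-0.48), *snrp-200* (-1.21), *his-31* (-0.064), miR-35-3p (-0.061) and 21ur-9360 (-0.84) turned negative, as did miR-39-3p (-0.40), which had no call. That of *mut-16* was also below 0 on the scale of equal totals (-0.15) and after TMM (-0.10).

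Leaving out 1 wild type or *prg-1* library gave 1337 to 1384 WAGO-class loci lower and 292 to 336 higher, 372 to 424 and 710 to 780 in the CSR-1 class, 54 to 63 miRNAs higher and 1961 to 1969 piRNAs lower. edgeR called 555 WAGO-class loci higher and 1561 lower, and DESeq2 534 and 1579. Samples were not paired by replicate number in the main fit, and correlations of same-numbered deviations were 0.007, 0.034 and 0.023. With replicate number as a block 373 WAGO-class loci were higher and 1380 lower, 758 and 426 in the CSR-1 class. Each wild type and *prg-1* library correlated best with the library of its own number in the other strain, a hint from the data and not from the design. All of these correlations were very small, and *mut-16* libraries were not compared in this way. From so few libraries the correlations cannot show whether the samples were paired. Over all alternatives, 2208 of the values of named rows kept their call, 53 lost it, 17 gained one and 9 reversed. Causes of these shifts were not tested. 1 read was worth 0.672 to 2.16 scaled reads, which limits rows near absence.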

Other observations

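Neighbouring loci that carry the same clone name moved in 1 direction in some cases, and these clones were chosen after their values were seen. Of 9 rows of clone ZK250, which holds several MATH genes, 7 were higher and none lower, and in all 9 the *prg-1* libraries lay above the wild type libraries. Over all rows tested 15.3% were higher and 47.3% lower, and *prg-1* lay above without overlap at 25.4%. *math-50* was at 35.6, 40.3 and 24.1 in wild type and 384, 408 and 437 in *prg-1* (log2 change 3.61 ± 0.47, adjusted p = 4.1e-05), and *math-47* at 905, 899.8 and 779 in wild type and 4005, 4494 and 3993 in *prg-1* (log2 change 2.27 ± 0.57, adjusted p = 0.0097). The rows of clone D2005 went the other way, with 3 of 4 lower. *D2005.3* was at 411, 433 and 432 in wild type and 93.7, 110.1 and 123 in *prg-1* (log2 change -1.96 ± 0.13, adjusted p = 4.7e-07), and *drh-3*, a helicase gene needed to make 22G-RNAs, at 790.1, 876 and 899 in wild type and 504, 530.0 and 584 in *prg-1* (log2 change -0.66 ± 0.08, adjusted p = 1.7e-05). In clone C47D12, which holds *xpf-1*, 3 of 5 rows were lower and 1 higher. *C47D12.4* was at 45.6, 55.1 and 68.7 in wild type and 0, 0 and 0 in *prg-1*, with 0 in every *prg-1* library. Reads that match more than 1 of these similar genes cannot be told apart.

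Other gene families moved in both directions. Chemoreceptor, C-type lectin and collagen rows were mostly of the WAGO class, in which 16.2% of loci tested were higher and 57.9% lower. Of 28 chemoreceptor rows, 5 were higher and 12 lower (8 and 16 with 6 libraries). *srz-33*, listed as a pseudogene, was at 316, 242 and 247 in wild type and 5348, 5225 and 7158 in *prg-1* (log2 change 4.45 ± 0.32, adjusted p = 7.2e-06), and its log2 change without wild type replicate 1 was 4.58. Of 10 C-type lectin rows 1 was higher and 4 lower, and *clec-238* was at 361, 365 and 358 in wild type and 0, 0 and 0 in *prg-1*. Of 17 rows of the collagen list, which its name pattern lets hold other *dpy* genes, 4 were higher and 3 lower. Of 18 ribosomal protein rows 7 were higher and 1 lower on the deposited scale, but 0 and 2 with library totals made equal.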
